A study of Mus musculus with 14 samples.

Results

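The FGF pathway was followed as 35 listed genes: 11 ligands, 4 intracellular FGFs, 5 receptors, 6 Sprouty and Spred inhibitors, the ERK phosphatases Dusp4 and Dusp6, 3 ETS factors and 4 membrane proteins that tune the receptors. They were chosen by name, with earlier results of these data known, and matched by Entrez identifier in the full comparison of each day. Of the 35, 30 were tested at day 5 (D5) and 29 at day 10 (D10), with 28 on both days, among 16060 genes tested on either day. Fgf8, Fgf17, Fgf1 and Fgf2 were not analysed here on either day, Fgf11 not at D5, and Fgf4 and Fgf5 not at D10. The filter that set which genes were tested is not known, and a gene can have passed it through the group in which it was high.

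The libraries held polyadenylated RNA from mouse embryonic stem cells differentiated toward neural fates. All cells were of the line labelled GLI1-FTA in the A2Lox.cre background, a stem cell system for transgenes switched on by doxycycline. The D5 groups were 4 samples given doxycycline at 500 ng/ml for 48 hours from day 3 to day 5, and 4 untreated controls, all harvested as neural progenitor cells. The D10 groups were 3 samples with the same pulse from day 3 to day 5, harvested 5 days after it ended, and 3 untreated controls, all labelled immature neurons. Untreated controls received no drug, so doxycycline and GLI1 cannot be told apart. All samples come from 1 labelled line, the labels do not say whether replicates were separate cultures, and p-values then measure only the spread between these samples. The deposited values are 1 comparison per day with no value per library, so neither a replicate's value nor its SD can be given and the depth is unknown.

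Fibroblast growth factors are secreted ligands that bind receptor tyrosine kinases together with heparan sulfate and signal mainly through Ras and ERK. ERK signalling switches on its own brakes, the Sprouty and Spred proteins, the Dusp phosphatases and Il17rd, as well as the ETS factors Etv1, Etv4 and Etv5, so these genes serve as a transcriptional readout of the pathway. In the early neural tube FGF signals keep caudal progenitors undifferentiated, and they act beside Hedgehog in patterning. The FGF homologous factors Fgf11, Fgf12, Fgf13 and Fgf14 stand apart, since they stay inside the cell and bind voltage-gated sodium channels.

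Gli1, the induced gene, had log2 fold changes in the authors' deposited table of 4.79 on D5 (adjusted p = 1.12e-81) and 0.57 on D10 (adjusted p = 0.78). These values sum transgene and endogenous transcripts as far as they share reads. A gene is called here when the adjusted p (FDR) in the authors' deposited table is under 0.05. Errors are SEs implied by the deposited p-value and log2 fold change, and intervals are 95% intervals from them. Group levels are CPM values derived here from the deposited average CPM and fold, on the assumption that the average is a plain mean over equal groups. In bulk RNA, fewer cells of a type and less RNA per cell cannot be told apart. At D5 the 8 neural progenitor markers averaged 65.9 to 679 CPM each, 0 of them were called, and their summed derived level was 1912 CPM in induced and 1924 CPM in control cultures. At D10 the 8 neuron markers summed to 2265 CPM in induced and 2225 CPM in control cultures, while the 6 epithelial markers summed to 1308 CPM in induced and 1355 CPM in control cultures.

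While GLI1 was induced, 6 of the 30 measured FGF genes changed. Fgf14, an intracellular FGF, and Fgf9, a ligand, rose, while the receptor Fgfr4, the phosphatase Dusp4 and the membrane proteins Flrt2 and Flrt3 fell. That is 20.0% of these genes, against a background of 4.44% of all 15108 genes called at D5. Because the list was chosen with earlier results of these data known, its shares beside the background are descriptive and not an unbiased measure of enrichment. The 2 higher genes compare with 2.34% of all genes called higher, and the 4 lower genes with 2.1% called lower. Without adjustment, 10 of 30 FGF genes, or 33.3%, had a p under 0.05, against 10.7% of all genes. The median log2 fold change of the 30 was -0.049, with 14 above 0 and 16 below, and the median of all genes was 0.0015. Their median size of change was 0.24 on the log2 scale, against 0.087 for all genes. An FDR under 0.01 left Fgf14 and Flrt3, where 2.87% of all genes passed, and a fold of at least 2 left Fgf14 and Fgfr4, where 1.65% did. With Holm's adjustment Fgf14 was the 1 call, against 1.6% of all genes. P-values rescaled here so that the median gene of each level behaved as under no effect kept 4 of the 6, against 5.12% of all genes.

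**Figure D1:**
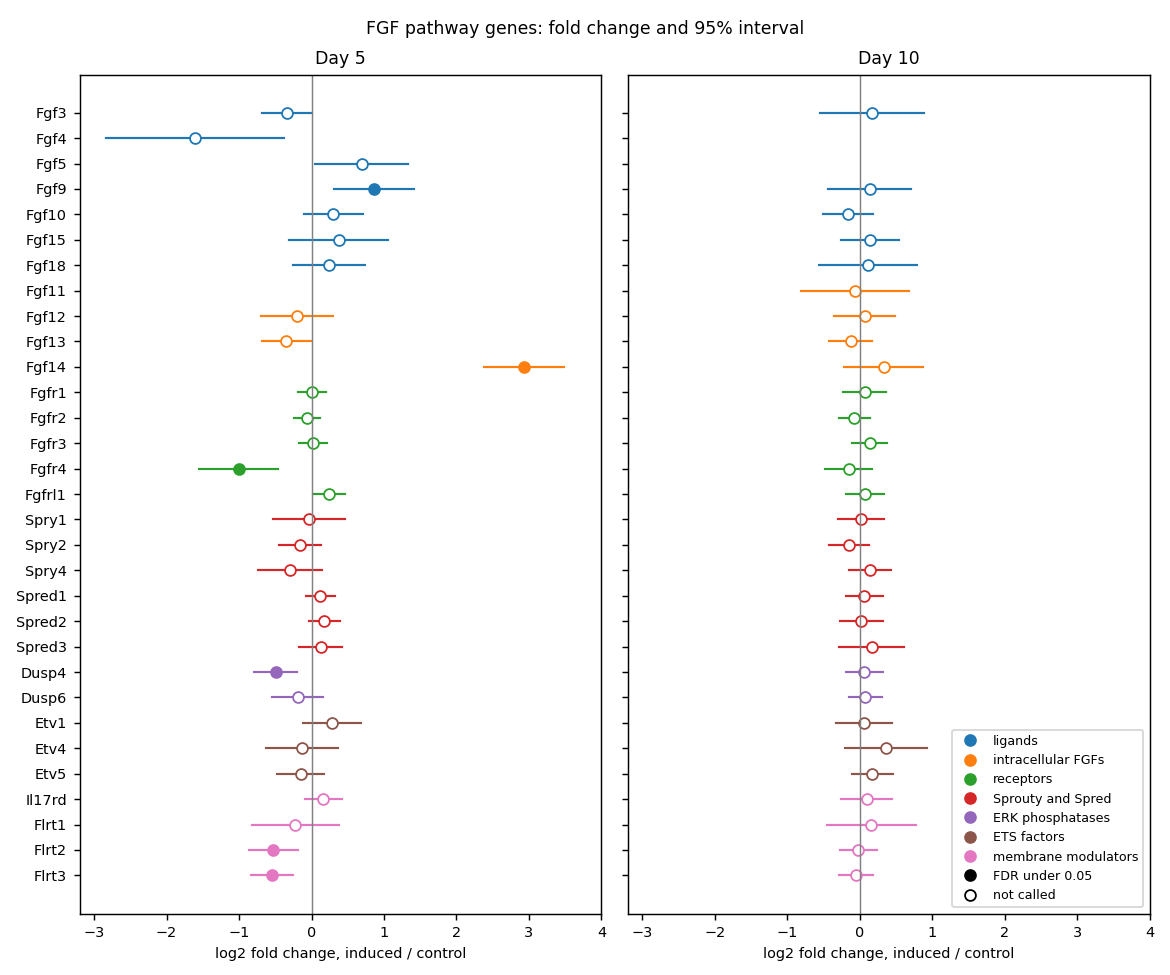
Log2 fold change of induced over control for 31 FGF pathway genes at day 5 (left) and day 10 (right), with lines for 95% intervals from the implied SE, colours for roles, and filled points for FDR under 0.05. Fgf14 stands at 2.93 at day 5, 6 points are filled there, and 0 are filled at day 10.

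Of the 7 ligands measured at D5, 5 were above 0 and 1 was called. Fgf9, a ligand with roles in lung, gonad and skeletal development, had a derived level of 2.53 CPM in induced and 1.39 CPM in control cultures. Its log2 fold change was 0.86 with an implied SE of 0.28 (adjusted p = 0.0496) in the authors' deposited table, which lies just inside the threshold. That call was lost once the p-values of the authors' deposited table were rescaled (adjusted p = 0.259). Fgf4, a ligand of pluripotent and early mesodermal cells, stood at 0.197 CPM in induced and 0.602 CPM in control cultures, and its log2 fold change of -1.61 did not pass (adjusted p = 0.162) in the authors' deposited table. Fgf5, a marker of the epiblast, stood at 1.75 CPM in induced and 1.08 CPM in control cultures and its value of 0.69 did not pass either (adjusted p = 0.371) in the authors' deposited table. These 2 genes, both known from early embryonic cells, thus had opposite signs. Beside them, 3 of the 8 pluripotency and epiblast markers were called, Dppa5a at -0.73, Dnmt3b at -0.44 and Tdh at -0.83 in the authors' deposited table. The marker list summed to 110.2 CPM in induced and 153.4 CPM in control cultures. Of these sums, Dnmt3b alone held 89.5 CPM in induced and 121.4 CPM in control cultures. The part of the marker list in the values of Fgf4 and Fgf5 was not tested.

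Fgf15, the mouse counterpart of human FGF19 and a ligand made in the developing neural tube, had 11.8 CPM in induced and 9.11 CPM in control cultures at D5. Its log2 fold change of 0.38 had an interval from -0.30 to 1.06 and did not pass in the authors' deposited table, so neither no change nor a doubling is outside it. Fgf3, a ligand of the hindbrain and ear field, had 6.02 CPM in induced and 7.61 CPM in control cultures and a log2 fold change of -0.34 (adjusted p = 0.487) in the authors' deposited table. Fgf10, which drives branching of lung and limb bud growth, stood at 0.30, and Fgf18, a ligand of skeletal growth, at 0.24, and neither passed in the authors' deposited table. On mouse chromosome 7, Fgf3, Fgf4 and Fgf15 lie next to each other with only noncoding genes between them, and the D-type cyclin gene Ccnd1 follows after 1 further coding gene, LTO1. Ccnd1 rose by 0.67 on the log2 scale (adjusted p = 2.62e-07) in the authors' deposited table, while none of its 3 FGF neighbours was called.

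Fgf14 had the largest change of the FGF genes measured. Its derived level at D5 was 5.42 CPM in induced and 0.713 CPM in control cultures. The log2 fold change of 2.93 (implied SE 0.28, interval 2.38 to 3.48) corresponds to 7.60-fold and had an adjusted p of 8.86e-23 in the authors' deposited table. The other intracellular FGFs measured at D5 were below 0. Fgf13, which also binds microtubules in neurons, stood at -0.35 (adjusted p = 0.427) and Fgf12 at -0.20 in the authors' deposited table, and neither passed. Annotation places 2 antisense genes and several pseudogenes within Fgf14. The sources do not state how strand entered the counting, so the share of its reads that these hold is uncertain, as it is for Fgf9, which overlaps a pseudogene.

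Sequences just upstream of the changed genes are shown because the induced factor binds DNA. The 250 bases before the start are printed for the 5 changed genes with a promoter in the RefSeq table of build GRCm38.p6, each read 5′ to 3′ on the gene's strand. The windows are chr14:124192547-124192796 (- strand) for Fgf14, chr14:58072436-58072685 (+ strand) for Fgf9, chr13:55152568-55152817 (+ strand) for Fgfr4, chr12:95691976-95692225 (+ strand) for Flrt2 and chr2:140671477-140671726 (- strand) for Flrt3. Capitals mark matches to any of the 3 motifs searched.
Fgf14: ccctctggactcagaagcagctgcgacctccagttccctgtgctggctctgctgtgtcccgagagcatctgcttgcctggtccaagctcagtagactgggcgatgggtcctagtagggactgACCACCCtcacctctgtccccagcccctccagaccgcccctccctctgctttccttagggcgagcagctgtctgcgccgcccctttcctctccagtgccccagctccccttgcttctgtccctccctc
Fgf9: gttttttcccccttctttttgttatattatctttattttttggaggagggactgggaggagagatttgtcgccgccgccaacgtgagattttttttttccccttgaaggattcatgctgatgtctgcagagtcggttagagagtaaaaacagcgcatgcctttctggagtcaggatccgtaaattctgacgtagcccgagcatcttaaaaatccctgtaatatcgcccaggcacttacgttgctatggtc
Fgfr4: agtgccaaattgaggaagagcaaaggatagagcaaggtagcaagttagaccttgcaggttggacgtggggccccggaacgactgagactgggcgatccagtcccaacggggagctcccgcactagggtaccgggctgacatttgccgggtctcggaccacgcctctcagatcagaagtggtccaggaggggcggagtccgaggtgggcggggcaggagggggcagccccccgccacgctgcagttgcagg
Flrt2: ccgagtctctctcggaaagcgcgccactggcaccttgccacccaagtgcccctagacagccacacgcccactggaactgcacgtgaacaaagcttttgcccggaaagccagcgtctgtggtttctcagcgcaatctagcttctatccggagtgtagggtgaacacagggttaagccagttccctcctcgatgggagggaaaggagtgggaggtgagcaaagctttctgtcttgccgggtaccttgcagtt
Flrt3: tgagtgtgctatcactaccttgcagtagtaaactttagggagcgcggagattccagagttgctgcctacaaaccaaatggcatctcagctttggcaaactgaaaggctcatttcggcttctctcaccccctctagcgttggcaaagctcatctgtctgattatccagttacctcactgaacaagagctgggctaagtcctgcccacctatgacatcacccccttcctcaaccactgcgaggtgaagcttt

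The motifs were searched on both strands in 35 promoters of 26 of the FGF genes and in all 32851 promoters of the table. Promoters of FGF genes on chromosome 18, where Fgf1 and Spry4 lie, were left out, while the full set had no such limit. They were the GLI consensus GACCACCCA, its inner letters ACCACCC, and the ETS motif CCGGAAGT. The second motif lies inside the first. The full GLI consensus occurred in 0 FGF promoters and in 0.225% of all. The inner letters occurred in 1, that of Fgf14, from 128 to 122 bases before the start, and in 3.92% of all promoters. The ETS motif occurred in 1, that of Fgfrl1, and in 2.88% of all. A match here describes letters in a short window and is not evidence of a site.

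**Figure D2:**
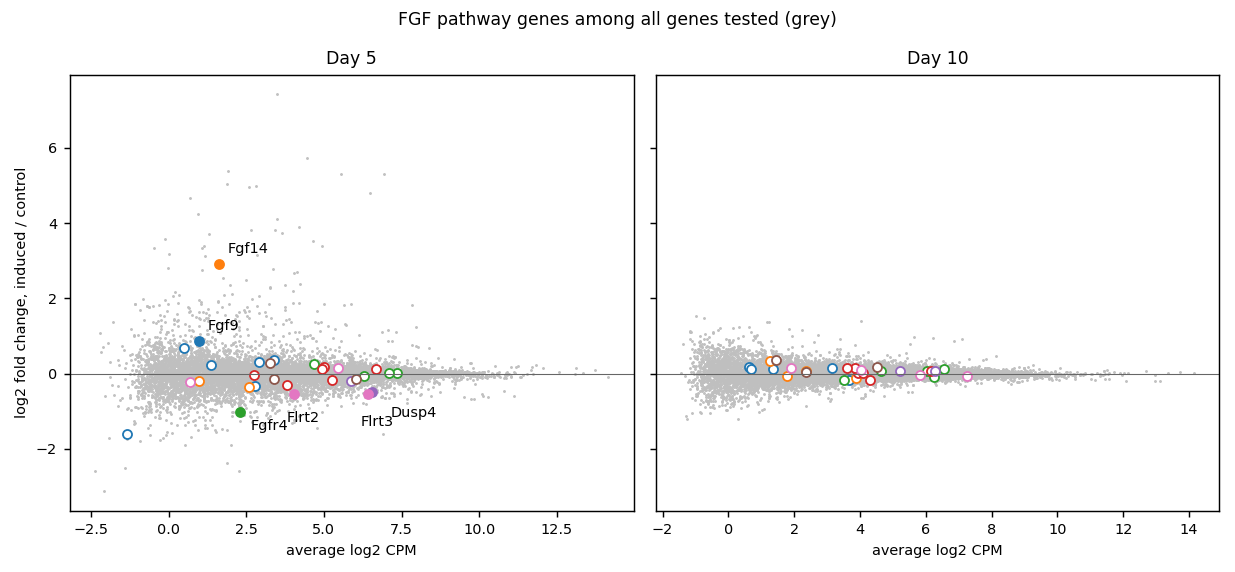
Log2 fold change of induced over control against average log2 CPM at day 5 (left) and day 10 (right), with all tested genes in grey and FGF pathway genes as circles coloured by role as in the plot of intervals, filled and named where FDR is under 0.05. Fgf14 at 2.93 is the highest FGF gene at day 5, while the FGF genes at day 10 lie between -0.16 and 0.36.

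The 3 main receptors showed little difference between induced and control cultures at D5, with narrow intervals. Fgfr1 had 162 CPM in both groups and a log2 fold change of 0.0072 with an interval from -0.19 to 0.20 in the authors' deposited table. Fgfr3 had 137 CPM in induced and 136 CPM in control cultures, with an interval from -0.17 to 0.21 on the log2 scale. Fgfr2 had 76.4 CPM in induced and 79.7 CPM in control cultures, with an interval from -0.24 to 0.12. Fgfr4, the receptor that partners with Klb in liver, fell to 3.27 CPM in induced cultures, against 6.56 CPM in controls. Its log2 fold change was -1.01 with an implied SE of 0.28 (adjusted p = 0.0103) in the authors' deposited table. Once the p-values of the authors' deposited table were rescaled, it no longer passed (adjusted p = 0.0615). Fgfrl1, a receptor that lacks the kinase domain, stood at 0.25 and did not pass (adjusted p = 0.319) in the authors' deposited table.

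Most of the feedback genes that report ERK activity did not pass at D5. None of the 6 Sprouty and Spred genes did, and their log2 fold changes ran from -0.30 to 0.17 in the authors' deposited table. The 3 Sprouty genes, which block Ras activation, were below 0, with Spry2 at -0.16, Spry4 at -0.30 and Spry1 at -0.035 in the authors' deposited table. The 3 Spred genes, which bring neurofibromin to Ras at the membrane, were above 0, with Spred2 at 0.17, Spred1 at 0.12 and Spred3 at 0.12 in the authors' deposited table. Spry2 had 36.4 CPM in induced and 40.5 CPM in control cultures, and Spred1 had 105 CPM in induced and 97 CPM in control cultures. At an unadjusted p under 0.05 there were also 0 of the 6. No interval of these 6 genes reached a 2-fold change, and none excluded 0.

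The dual-specificity phosphatases differed in their calls. Dusp4, a nuclear ERK phosphatase, fell to 78.5 CPM in induced cultures, against 110.2 CPM in controls, with a log2 fold change of -0.49 (implied SE 0.15, adjusted p = 0.0307) in the authors' deposited table. Dusp6, the cytoplasmic ERK phosphatase and a standard FGF readout, had 54.2 CPM in induced and 61.9 CPM in control cultures, and its value of -0.19 did not pass in the authors' deposited table. Its interval ran from -0.54 to 0.16, which overlaps that of Dusp4 (-0.79 to -0.19). The ETS factors Etv4 and Etv5, induced by FGF in many embryonic tissues, stood at -0.14 and -0.15, and Etv1 at 0.29, with none called and 0 at an unadjusted p under 0.05 in the authors' deposited table. Etv5, the most abundant of them per length of exon, had 62.5 CPM in induced and 69.3 CPM in control cultures with an interval from -0.47 to 0.17.

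The membrane modulators held 2 of the 4 falls. Flrt3, a leucine-rich repeat protein that binds FGF receptors and Unc5 guidance receptors, fell to 69.1 CPM in induced cultures, against 100.4 CPM in controls. Its log2 fold change was -0.54 with an implied SE of 0.15 (adjusted p = 0.00918) in the authors' deposited table. Flrt2 fell to 13.5 CPM in induced cultures, against 19.4 CPM in controls, with a log2 fold change of -0.53 (implied SE 0.17, adjusted p = 0.0492) in the authors' deposited table. Annotation places 2 transcripts of unknown status on the strand of Flrt2. Both falls kept an FDR under 0.05 with rescaled p-values, as did that of Dusp4. Rescaling made the adjusted p smaller for all of them, at 0.000106 for Flrt3, 0.0301 for Flrt2 and 0.00113 for Dusp4. It was therefore not a stricter check of these falls. The third family member, Flrt1, was low at 1.5 CPM in induced and 1.76 CPM in control cultures and stood at -0.22 in the authors' deposited table, with an interval from -0.82 to 0.37. Il17rd, also called Sef, an inhibitor of FGF receptor signalling, stood at 0.16 (adjusted p = 0.912) in the authors' deposited table. Flrt3 lies within Macrod2 on the opposite strand. Macrod2 stood at -0.32 and did not pass in the authors' deposited table, and its part in the reads counted for Flrt3 was not tested.

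**Figure D3:**
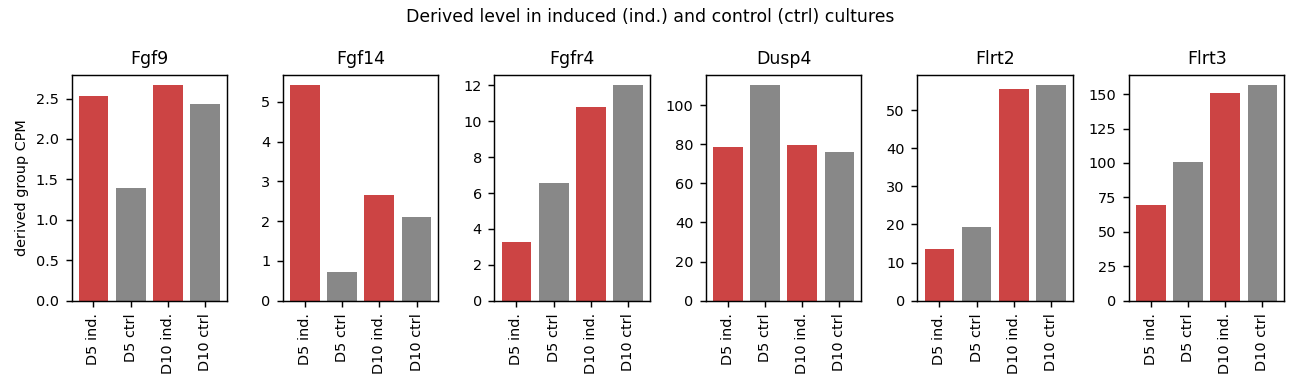
Derived CPM of the 6 FGF genes called at day 5, in induced (red) and control (grey) cultures at day 5 and day 10, each bar 1 group without an error since the files hold no library values. Fgf14 stands at 5.42 CPM in induced and 0.713 CPM in control cultures at day 5, and at 2.65 CPM in induced and 2.11 CPM in control cultures at day 10.

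Markers of other lineages differed at D5 in both directions, on a day when 4.44% of all genes were called. Of the 6 endoderm markers, 3 were lower, Gata4 at -0.78, Gata6 at -0.67 and Sox7 at -0.63, and 1, Foxa2, also a floor plate factor, was higher at 1.37 in the authors' deposited table. Summed over the list, endoderm markers stood at 193.9 CPM in induced and 245.9 CPM in control cultures. The 5 measured epithelial markers summed to 244.4 CPM in induced and 316.4 CPM in control cultures, with Epcam at -0.58 and Cdh1 at -0.48 called in the authors' deposited table. Pdgfra, listed as a mesoderm marker, was lower at -0.81 and T (brachyury) higher at 1.85 in the authors' deposited table, and the other mesoderm markers were not analysed at D5. T was low, at 1.56 CPM in induced and 0.433 CPM in control cultures, while Pdgfra had 59.3 CPM in induced and 104.2 CPM in control cultures. The 8 neuron markers summed to 733.2 CPM in induced and 1035 CPM in control cultures, with 5 called lower, namely Tubb3, Stmn2, Nefm, Nefl and Gap43. Of these sums, Nefm held 58.4 CPM in induced and 178.3 CPM in control cultures, and Nefl held 54.6 CPM in induced and 118.2 CPM in control cultures. The others, Map2 at -0.28, Dcx at -0.0026 and Elavl3 at 0.054, were not called in the authors' deposited table. Of the remaining lists, 1 of 3 measured neural crest markers, Tfap2b, was lower and 1 of 4 measured endothelial markers, Sox18, was higher. The part of these shifts in Fgfr4, Dusp4, Flrt2 and Flrt3 was not tested.

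Other genes of the pathway were read from a list of 80, also chosen with earlier results known, of which 68 were tested on each day. At D5, 3 were higher and 3 lower, which is 8.82% of the 68, against the same background of 4.44%. Their median log2 fold change was -0.0066. Klb, the co-receptor of Fgfr4 for endocrine FGFs, fell to 10.8 CPM in induced cultures, against 18.8 CPM in controls (log2 fold change -0.81, adjusted p = 0.0151) in the authors' deposited table. The heparan sulfate carriers split: Sdc3, the syndecan of nerve cells, rose by 0.48 (adjusted p = 0.000709) and Sdc4 fell, at -0.34 (adjusted p = 0.0469), in the authors' deposited table. Fgfr4 and its partner Klb were thus both lower.

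The list of early targets of ERK also held transcription factors that ERK acts through, such as Elk1 and Srf. Of its 21 measured genes, 3 were called in mixed directions, which is 14.3%, against 4.44% of all genes. Egr2, a zinc-finger factor of early growth response and of hindbrain segments, fell to 5.71 CPM in induced cultures, against 12.9 CPM in controls (log2 fold change -1.18, adjusted p = 1.3e-05) in the authors' deposited table. Ccnd1, a cell cycle driver, stood at 411 CPM in induced and 258 CPM in control cultures. Ets2, an ETS factor, rose by 0.61 (adjusted p = 0.00021) in the authors' deposited table. The classic immediate early genes Fos at 0.055 and Egr1 at -0.47 did not pass in the authors' deposited table. Both intervals were wide, from -0.81 to 0.92 for Fos and from -0.999 to 0.059 for Egr1. Inside the signalling chain, 0 of 13 adaptors and 0 of 15 Ras, Raf, MEK and ERK genes were called, with log2 fold changes from -0.12 to 0.24 and from -0.28 to 0.14 in the authors' deposited table. The adaptor list included Stat3, Cbl and Plcg1, and the Ras, Raf, MEK and ERK list included Ksr1 and Rps6ka kinases. None of the 9 further feedback inhibitors was called. At an unadjusted p under 0.05, where 10.7% of all genes stood, there were 7 of the 21 genes on the early target list (4 higher and 3 lower). There were also 5 of the 10 co-receptors and binding proteins (2 higher and 3 lower). The other classes had 1 of 13 adaptors, 0 of 15 Ras, Raf, MEK and ERK genes and 1 of 9 feedback inhibitors.

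**Figure D4:**
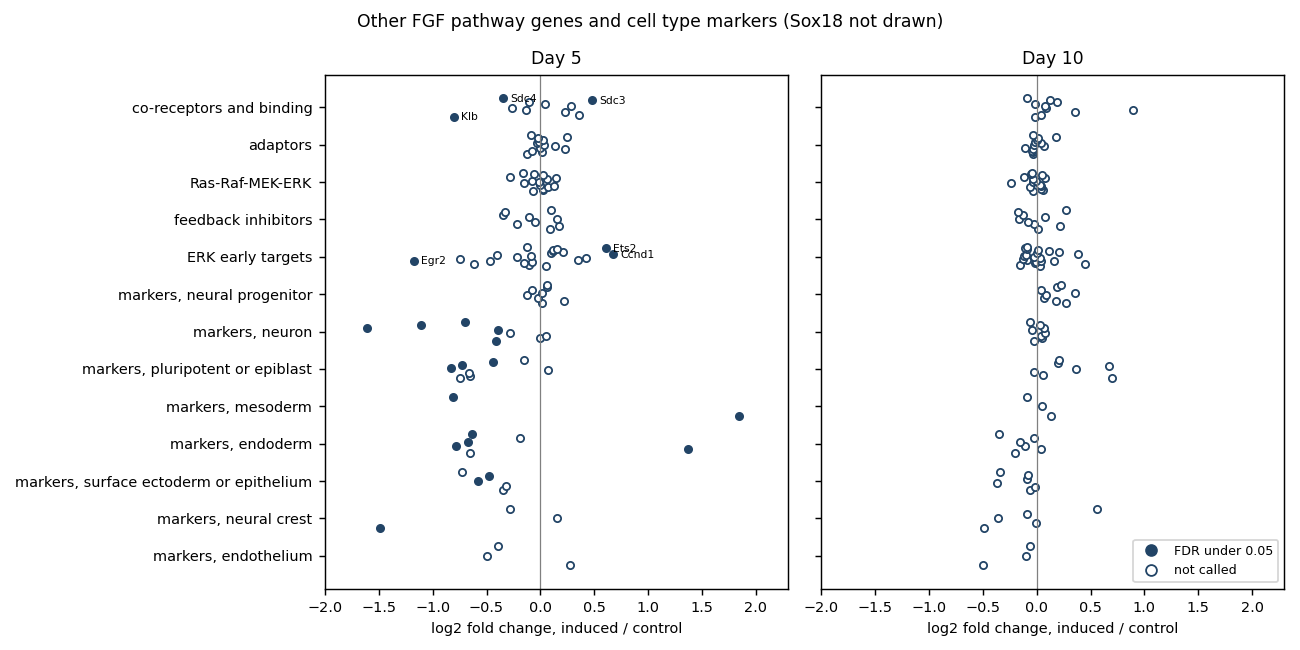
Log2 fold change of induced over control for other FGF pathway genes and for marker lists of cell types at day 5 (left) and day 10 (right), each point 1 gene, filled where FDR is under 0.05 and named for pathway genes. Sox18, at 7.43 at day 5, is not drawn. Adaptors and Ras, Raf, MEK and ERK genes cluster near 0 at day 5, and 0 points are filled at day 10.

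At D10 none of the 29 measured FGF genes was called, where 0.0826% of all genes were. At an unadjusted p under 0.05 there were also 0 of 29, against 1.53% of all 15744 genes, and with rescaled p-values 0 passed, against 0.756%. Their log2 fold changes ran from -0.16 to 0.36 in the authors' deposited table. The median was 0.066, with 21 above 0 and 8 below, against a median of 0.0027 over all genes. The 8 neural progenitor markers were all above 0 on the same day, with a median log2 fold change of 0.18, and summed to 1387 CPM in induced and 1268 CPM in control cultures. None of these markers was called, 1 had an unadjusted p under 0.05, and Nes and Fabp7 passed with rescaled p-values. Fabp7 had an unadjusted p of 0.0887 in the authors' deposited table, so rescaling was the laxer test here and adds no evidence. Their part in the values of the FGF genes was not tested. Fgf14 had 2.65 CPM in induced and 2.11 CPM in control cultures, and its value of 0.33 had an interval from -0.22 to 0.88 in the authors' deposited table. Fgf9 had 2.66 CPM in induced and 2.43 CPM in control cultures, with a log2 fold change of 0.13 in the authors' deposited table. The 4 genes that had fallen were near 0: Fgfr4 at -0.16, Dusp4 at 0.063, Flrt2 at -0.024 and Flrt3 at -0.054 in the authors' deposited table. The readout genes Etv4 at 0.36, Etv5 at 0.17, Spry4 at 0.14 and Dusp6 at 0.075 were above 0 and Spry2 at -0.15 below it in the authors' deposited table, with none called. Of the 68 other pathway genes 0 were called and 4 had an unadjusted p under 0.05, and Ccnd1 still had a log2 fold change of 0.38 (adjusted p = 0.602) in the authors' deposited table. With rescaled p-values, 4 of the 68 passed, Fgfbp3, Nf1 and Ccnd1 higher and Map2k1 lower. Rescaling was again the laxer test, since Nf1 had an unadjusted p of 0.0905 in the authors' deposited table. The D10 p-values lean high, with a median of 0.684 over all genes, against 0.536 at D5.

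The receptors at D10 again stood close together between the groups. Fgfr3 had 98.1 CPM in induced and 89.2 CPM in control cultures, with a log2 fold change of 0.14 and an interval from -0.11 to 0.38 in the authors' deposited table. Fgfr2 had 74.7 CPM in induced and 78.8 CPM in control cultures, and Fgfr1 had 67.6 CPM in induced and 64.5 CPM in control cultures. Fgfr4 had 10.8 CPM in induced and 12.01 CPM in control cultures, with an interval from -0.49 to 0.17. Dusp4 had 79.6 CPM in induced and 76.2 CPM in control cultures, with an interval from -0.19 to 0.32. Flrt3 had 151 CPM in induced and 156 CPM in control cultures, with an interval from -0.29 to 0.18, and Flrt2 had 55.6 CPM in induced and 56.5 CPM in control cultures, with an interval from -0.28 to 0.23. None of these 4 genes was called at D10. Among the intracellular FGFs, Fgf11, measured on this day alone, had 3.39 CPM in induced and 3.55 CPM in control cultures, and Fgf13 had 14.0 CPM in induced and 15.3 CPM in control cultures. The ligands Fgf15, Fgf10 and Fgf3 stood at 0.14, -0.16 and 0.17 on the log2 scale in the authors' deposited table, with none called.

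The response of Fgf14 differed between the days. Its log2 fold change at D10 minus that at D5 was -2.60 (SE 0.40) in the test of the difference computed here, with an adjusted p of 2.24e-08 over the 14792 genes in both tables. It was the 1 of 28 FGF genes that passed, against 1.24% of all genes. At an unadjusted p under 0.05 there were 5 of 28, against 4.91% of all genes. The other 4 were Dusp4, with a D10 value higher by 0.55, Fgfr4 by 0.85, Flrt3 by 0.48 and Flrt2 by 0.50, with adjusted p values of 0.282, 0.363, 0.409 and 0.590. With the p-values of the authors' deposited table rescaled, Dusp4 (adjusted p = 0.00157) and Flrt3 (adjusted p = 0.00956) passed as well, and 2.44% of all genes did. Rescaling made the adjusted p of both genes smaller, so it was not a stricter check of their differences. Fgf9, called at D5 and not at D10, did not pass the test of its difference, with an unadjusted p of 0.0738. In 22 of the 28 genes the value was closer to 0 at D10, against 9017 of the 14792 genes in both tables. Among 67 other pathway genes, Ets2 was the 1 that passed the test of the difference (adjusted p of 0.0255), with -0.10 at D10 and 0.61 at D5 in the authors' deposited table.

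Levels can be compared between genes only per length, and the average over both groups was therefore divided by the kilobases of annotated exon. At D5 the most abundant FGF gene per kilobase was Dusp4 at 34.4 CPM, followed by Fgfr3 at 19.1, Dusp6 at 18.5, Spry2 at 18.4, Flrt3 at 17.4 and Fgfr1 at 16.4 CPM per kilobase. Fgfr3 and Fgfr1 were above Fgfrl1 at 9.13 and Fgfr2 at 7.56, and Fgfr4 was far lower at 1.39 CPM per kilobase. Every measured ligand was low, from 0.125 for Fgf4 to 3.42 for Fgf15 in CPM per kilobase. The spread over samples is not known, so neighbours in this order cannot be told apart. With the longest transcript in place of all exons, Fgfr2 stood at 17.6 and Fgfrl1 at 10.9 CPM per kilobase, so the order of these 2 receptors depends on the length used. Fgfr1 then stood at 32.1, above Flrt3 at 21.3, Dusp6 at 20.8 and Spry2 at 18.4, so its place depends on the length too.

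Levels of the days come from tables normalised separately, and no test compares them. At D10 Flrt3 had the highest level per kilobase, at 31.6 CPM, beside 17.4 at D5, and Flrt2 stood at 7.26 at D10 beside 2.13 at D5. Fgfr4 stood at 3.22 CPM per kilobase at D10 beside 1.39 at D5. In the other direction, Fgfr1 stood at 6.69 at D10 beside 16.4 at D5, Etv5 at 5.52 beside 16.1, Etv4 at 0.872 beside 3.4 and Fgf3 at 0.667 beside 2.93 CPM per kilobase. In control cultures alone, derived levels of Fgf14 were 0.713 CPM at D5 and 2.11 CPM at D10.

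**Figure D5:**
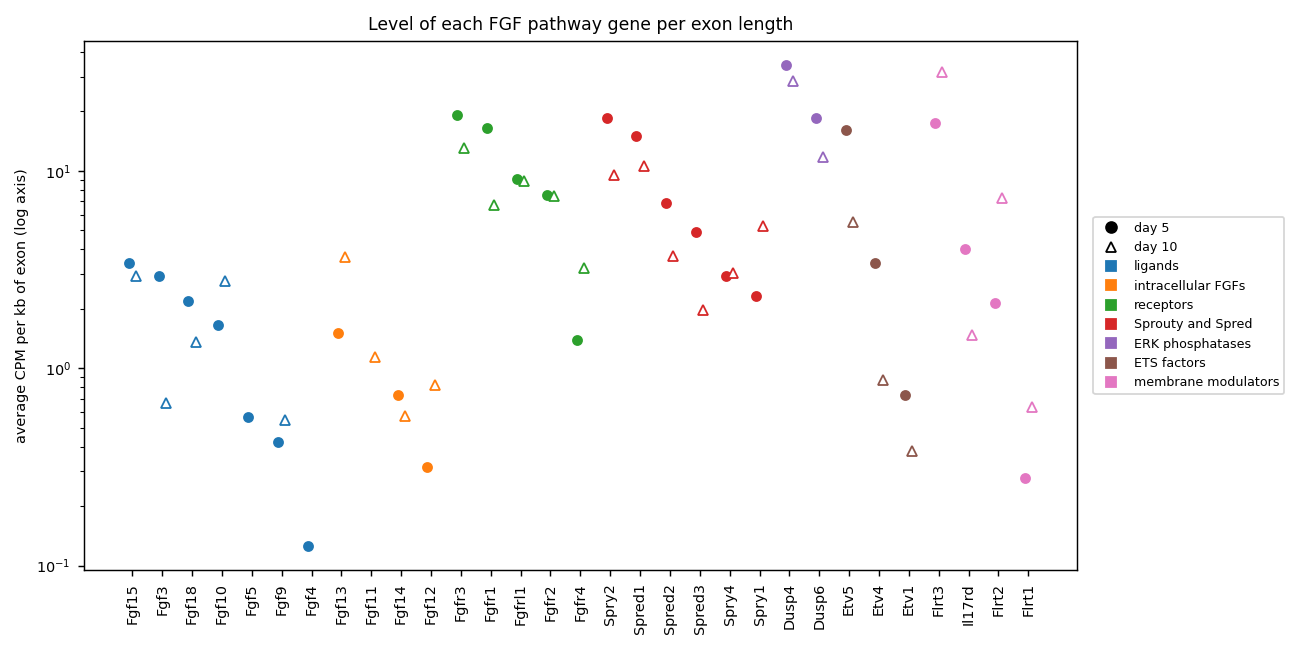
Average CPM over both groups per kilobase of annotated exon (log axis) for each measured FGF gene at day 5 (circles) and day 10 (triangles), ordered by day 5 level within each role and with no error since the files hold no library values. Dusp4 is highest at day 5 with 34.4 and Flrt3 at day 10 with 31.6 CPM per kilobase, and the ligands lie at 3.42 or below.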

How the data were processed

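Polyadenylated RNA was sequenced in 14 libraries, as single-end reads according to the labels' protocols. The authors deposited, per the file headers, 1 comparison a day with a log2 fold change, an average log2 CPM, a p-value and an FDR for each Entrez gene. No source used here names their aligner, test, build or filter, and the labels call the reads stranded while how strand entered the counting is not stated. The deposited average log2 CPM has base 2, since its powers of 2 add up to 1001543 (D5) and 1001340 (D10). The same base was assumed for the fold change. Adjusting the deposited p-values by Benjamini-Hochberg gave the deposited FDR to within 3.41e-05.

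Symbols came from a RefSeq gene table (GRCm38.p6), which matched 94.6% of identifiers on either day. Each SE was implied by dividing the absolute log2 fold change by the absolute z of its p-value. The days share no libraries, so their difference was divided by the root of the summed squared SEs, with a normal reference, two-sided, and adjusted over 14792 genes; 434 genes without a finite SE were entered as no difference. Group levels in CPM were derived from the deposited average and fold. Exon lengths came from GENCODE vM21. Rescaled p-values set the median size of z, in bins of about 500 genes of like level, to that of a standard normal, a step taken from an earlier analysis of these data. Alternatives were thresholds of 0.01 and 0.1, a fold of at least 2, Holm's adjustment, rescaled p, and testing only genes whose average log2 CPM reached 1. The members, lists and tests were chosen with earlier results of these data known. The rule for named genes covers all members, other pathway genes with an FDR under 0.05, and called markers. The chromosome neighbours, the overlapping genes, Fos, Egr1 and the promoters shown were named after values were seen. Calculations used Python 3.11.15, pandas 2.3.3, numpy 2.4.6 and scipy 1.17.1.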

Additional observations from a re-analysis of the deposited data

Results flagged for a closer look

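Fgf14 stood out because its response differed between the days by a test of the difference itself. Its log2 fold change, D10 minus D5, was -2.60 (adjusted p = 2.24e-08), with 0.33 at D10 and 2.93 at D5 in the authors' deposited table. The same test of D10 minus D5 passed for Gli1, at -4.22, and for the ERK target Ets2, at -0.71. Among the markers it passed for Foxa2, at -1.33, in endoderm and floor plate, for the neuron markers Nefm, at 1.68, Nefl, at 1.14, and Gap43, at 0.64, for Dppa5a, at 1.39, and Dnmt3b, at 0.64, of early embryonic cells, and for Tfap2b, at 1.12, of neural crest. Samples far from the others of their group could not be looked for, since only group comparisons were used.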

How the results depend on the processing

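At D5, 6 FGF genes were called, and 2 with an FDR under 0.01 (Fgf14 and Flrt3), 2 with a fold of at least 2 (Fgf14 and Fgfr4) and 1 with Holm's adjustment (Fgf14). With rescaled p 4 were called, without Fgf9 and Fgfr4, and when only genes whose average log2 CPM reached 1 were tested there were 5, since Fgf9 is below that level. Of the 6 other pathway genes called at D5, 1 had a fold of at least 2, 2 passed Holm's adjustment; with rescaled p, 10 of the 68 tested were called. At D10, 0 FGF genes were called under every alternative run, and 4 other pathway genes passed with rescaled p. The difference between days held for Fgf14 under each alternative run, and 3 FGF genes passed with rescaled p. Over the single genes named, 37 of 63 values stayed on their side of the threshold and 26 lost the call. Every alternative kept the deposited fold change, so a reversal of direction could not occur and was not tested. The stricter thresholds lose calls by construction, and the cause of the changes with rescaled p was not tested. No paired analysis was possible because the files hold no value per library, and for the same reason no replicate could be left out. The depth is unknown, so the precision that counting alone would give for genes of low average CPM, such as Fgf4, cannot be stated.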
